A study of Mus musculus with 16 samples.

Results

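The extracellular arm of BMP, activin/Nodal and TGF-beta signalling was examined for Jarid2 occupancy and H3K27me3 in mouse cells. It was taken as 31 genes: 15 BMP/GDF ligands, 4 activin, inhibin and Nodal ligands, 3 TGF-beta ligands and 9 antagonists. A member was counted as occupied when a ChIP-seq peak overlapped the gene or lay within 5 kb of it. This distance was measured on the GENCODE annotation of NCBIM37, the assembly also named mm9. By this rule, 24 of the 31 members had a Jarid2 peak and 22 had a Jarid2-K116me2 peak, out of 22350 protein-coding genes searched. Jarid2-K116me2 is Jarid2 dimethylated at its lysine K116.

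The series holds 16 samples, and 14 of them have peak lists. E14 embryonic stem cells (ESC), an unmodified mouse line grown in serum and LIF, gave 1 ChIP for total Jarid2 and 1 for Jarid2-K116me2. The other 12 libraries are H3K27me3 ChIPs in 6 groups of 2 replicates. Their cells are Jarid2-/- ESC (KO), or the same Jarid2-/- cells carrying a bacterial artificial chromosome (BAC) that expresses Jarid2 (WT) or Jarid2K116A (K116A). Each line was sampled as ESC in serum and LIF, and as embryoid bodies (EB) formed in hanging drops and kept without LIF for 8 days. All 6 H3K27me3 groups thus share the Jarid2-/- background, and the reference is the rescued line, not an unmodified one. The BACs were integrated with a transposon, and whether each rescued line is a single clone is not given in the sources used here. The peak lists hold no reads, so the loss of Jarid2 in the KO libraries could not be checked.

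BMP, activin, Nodal and TGF-beta ligands are secreted dimers that bind paired type I and type II serine/threonine kinase receptors, which then phosphorylate Smad proteins. Secreted antagonists such as Noggin and Chordin trap BMPs, follistatin traps activins, and Lefty proteins block Nodal. These ligands pattern the early embryo and steer ESC towards mesoderm, endoderm or ectoderm. Jarid2 is a component of PRC2, the complex that deposits H3K27me3, and in ESC both are found mainly at CpG-rich starts of silent developmental genes.

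Jarid2 was present at most of the ligand and antagonist genes. A Jarid2 peak was found at 24 of 31 members (77.4%), against 18.1% of all protein-coding genes under the same rule. Jarid2-K116me2 was found at 22 members (71.0%), against 16.0% of all genes. Overlapping peaks of both antibodies were found at the same 22 members, against 15.8% of all genes. The study has 1 sample per antibody and the members were chosen with earlier results known, so these shares are given without a test. Counts of 23 and 21 members were left when a peak had to overlap the gene itself.

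All 4 roles were represented. Among BMP/GDF ligands, 11 of 15 had a Jarid2 peak and 10 had a Jarid2-K116me2 peak. For the activin, inhibin and Nodal ligands both counts were 3 of 4, and for the TGF-beta ligands 2 of 3. The antagonists had 8 of 9 for Jarid2 and 7 of 9 for Jarid2-K116me2. Without a peak of either antibody were Bmp5, Bmp10, Gdf3, Gdf5, Nodal, Tgfb3 and Cer1. Gdf11 and Bambi had Jarid2 peaks only. Their highest scores were low, at 283.65 and 119.14. The lowest score in the Jarid2-K116me2 list was 91.86 and in the Jarid2 list 62.07, so a weak peak of the former had less chance of being listed.

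**Figure D1:**
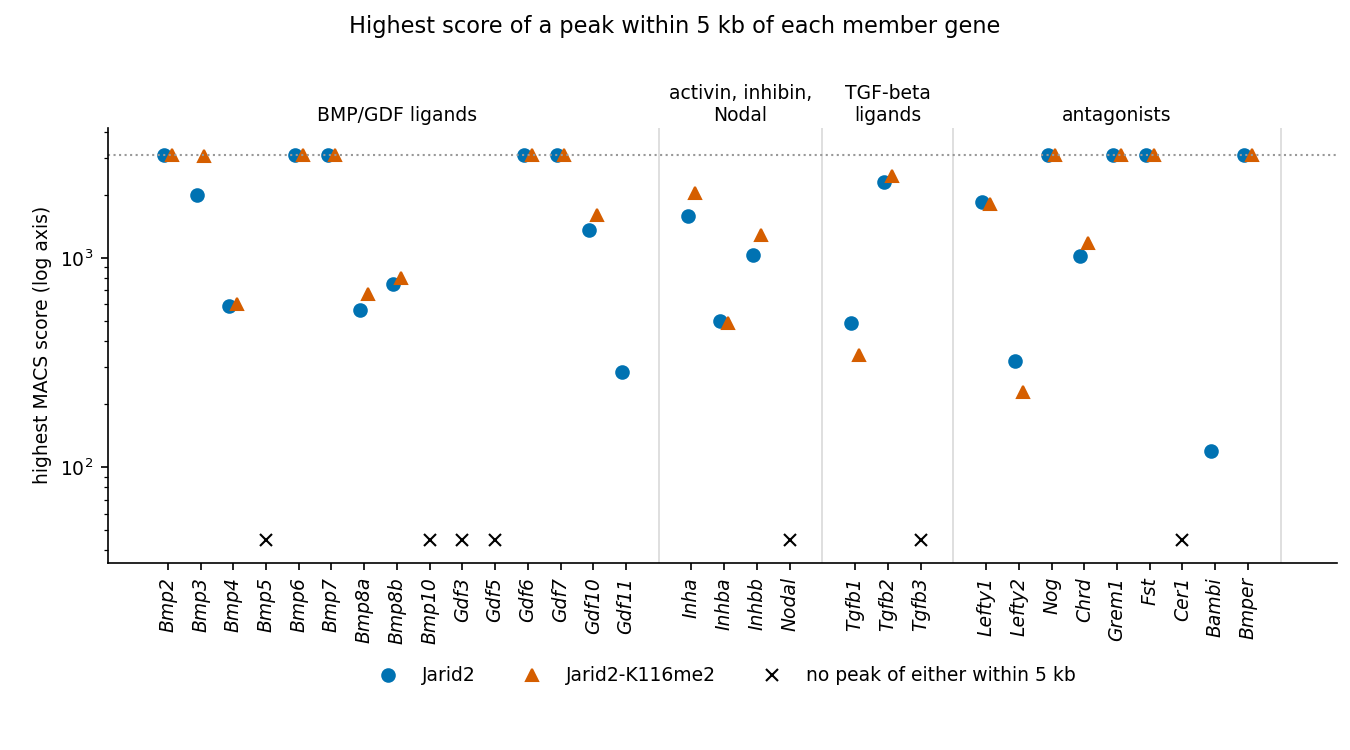
Highest MACS score of a Jarid2 peak (circles) and of a Jarid2-K116me2 peak (triangles) within 5 kb of each of the 31 members, on a log axis, grouped by role; crosses mark the 7 members without a peak and the dotted line marks a score of 3100. The 9 members on that line in both lists fall among the BMP/GDF ligands and the antagonists.

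The score of a peak is the one MACS wrote, minus 10 times the log10 of its p-value, and many peaks of either list share the value of 3100, although the highest scores were 3233.06 in the Jarid2 list and 3230.05 in the other. Members at 3100 were therefore not ranked among each other by score. This value was reached in both lists at 9 members: Bmp2, Bmp6, Bmp7, Gdf6, Gdf7, Nog, Grem1, Fst and Bmper. They make up 40.9% of the 22 members with both peaks, against 21.9% of the 3533 genes with both. They are BMP/GDF ligands or antagonists, and no activin, Nodal or TGF-beta ligand reached it. The median highest Jarid2 score was 2001.04 over the BMP/GDF ligands with a peak, 1033.69 over the activin and inhibin genes, 1396.02 over the TGF-beta ligands and 2477.5 over the antagonists. The last median counts Lefty1 at 1854.99, from a peak at the start of Tmem63a, while the peak in Lefty1 itself scored 212.96.

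Bmp2, a ligand of heart and bone formation, had a single Jarid2 peak of 5250 bp at chr2:133376466-133381715 on mm9, with its upstream edge at -1429 bp from the gene start and its midpoint in an intron. Its Jarid2-K116me2 peak was 4236 bp wide and lay inside that interval. Bmp7, which acts in kidney and eye development, had peaks of 5138 and 3345 bp over its start, at chr2:172761944-172767081 for Jarid2. Gdf6, a ligand of joint and eye development, had the widest cover of all members, with 10917 bp in 3 Jarid2 peaks. Its main peak (chr4:9769407-9776324) spanned the start, and a further peak with a score of 1563.11 lay 14770 bp downstream of the start in an intron. Jarid2-K116me2 followed there with a score of 1414.01 and its midpoint in a coding exon. Gdf7, a roof plate ligand, had peaks of 6219 and 6280 bp that covered the whole gene of 4021 bp.

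Bmp3, an inhibitory BMP family member of bone, scored 2001.04 for Jarid2 and 3078.93 for Jarid2-K116me2. Gdf10 scored 1361.26 and 1596.17 for the same antibodies, with both peaks over its start. Bmp4, a ligand that drives mesoderm formation, was lower, with scores of 589.61 and 600.85. Neither of its peaks covered the outermost annotated start, and the Jarid2 peak began 92 bp downstream of it.

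Among the activin and inhibin genes, Inhbb (activin beta B subunit) scored 1033.69 for Jarid2 and 1286.25 for Jarid2-K116me2, with peaks over its start at chr1:121316724-121319673 and chr1:121317798-121319487. Inhba (activin beta A subunit) carried separate peaks at its start and in a coding exon 5787 bp downstream. Both were of similar height, with Jarid2 scores of 471.07 and 499.1 and Jarid2-K116me2 scores of 486.51 and 453.13. Tgfb2 scored 2304.7 and 2453.47, and Tgfb1 only 487.34 and 344.83. The Jarid2 peak of Tgfb1 covered the start and its Jarid2-K116me2 peak began 522 bp downstream of it.

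Noggin (Nog), a BMP trap, had a Jarid2 peak of 6084 bp at chr11:89158745-89164828 that continued past the end of this short gene of 1922 bp. The Jarid2-K116me2 list gave 3 peaks over the same stretch, of which the peak at the start scored 3100 and the other two 761.14 and 310.99. Follistatin (Fst) likewise had 1 Jarid2 peak against 2 of Jarid2-K116me2. Grem1, a BMP antagonist of limb and kidney, and Bmper, a secreted BMP modulator, each had 1 peak per antibody across the start. Chrd scored 1019.68 and 1184.31, and its peaks also covered a start of the neighbouring gene Thpo. Lefty2 was among the lowest, with 321.31 for Jarid2 and 227.62 for Jarid2-K116me2.

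At 5 members the midpoint of the highest peak lay nearer to the start of a neighbour. The strongest peak counted for Lefty1 (1854.99) lay at the start of Tmem63a, whereas the peak in Lefty1 itself scored 212.96. For Inha, the inhibin alpha subunit, the peak of 1594.31 covered the starts of both Inha and Obsl1 and its midpoint was nearer to Obsl1. For Gdf7 the peaks of both antibodies likewise covered the start of a neighbour, AC122860.1, which was 1697 bp from the midpoint against 1918 bp for Gdf7. For Bmp8a and Bmp8b the highest peaks (566.14 and 750.41) lay over the intronic genes Oxct2a and Oxct2b, and the peaks nearest to their own starts scored 273.45 and 322.07. Reads that fit several places were assigned to a single location, and 26.9% and 26.7% of the 100-base stretches of the Oxct2a and Oxct2b peaks occur in the other locus too, so these scores are uncertain. That share was 5.27% for the peak inside Lefty1, 5.87% for that of Lefty2, 1.08% for the Bmp8a start peak and 0.0% for the Bmp8b start peak.

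The scores of the antibodies were close at most members. Below the value of 3100, 13 members could be compared, and Jarid2-K116me2 scored higher at 9 of them (69.2%) and Jarid2 at 4. Over all such genes Jarid2-K116me2 scored higher at 57.2% of 2552. The log2 ratio of Jarid2-K116me2 over Jarid2 had a median of 0.09 over the 13 members and 0.08 over all genes. It was highest for Bmp3 (0.62) and lowest for Tgfb1 and Lefty2 (-0.50 each). Inha (0.36), Inhbb (0.32), Bmp8a (0.25), Gdf10 (0.23) and Chrd (0.22) followed Bmp3. These ratios use the highest peak, which for Bmp8a, Bmp8b, Inha and Lefty1 lay nearer to the start of a neighbour. For Bmp8a the direction differed at the peaks nearest to its own start. There Jarid2 scored 273.45 and Jarid2-K116me2 197.44. Without replicates, and with scores not corrected for depth, these ratios carry no error and were not tested.

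Jarid2 peaks were the wider ones at 19 of the 22 members with both, and at 3292 of the 3533 genes. The median ratio of the summed widths was 1.23 for the members and 1.24 for all genes. Tgfb1 (1.52), Bmp7 (1.54), Lefty2 (1.49) and Inhba (1.48) had the largest ratios. Chrd, Bmp3 and Gdf7 had slightly wider Jarid2-K116me2 cover, with ratios of 0.94, 0.99 and 0.99.

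The starts of occupied members were rich in CpG. In the 1 kb centred on the start, the observed CpG number over that expected from base composition had a median of 0.73 over the 24 members with a Jarid2 peak and 0.37 over the 7 without. Over all genes these medians were 0.67 and 0.47. Bmp2 had the highest value of the members (1.08). Low values also occurred under a Jarid2 peak, at Inha (0.25), Lefty1 (0.27), Lefty2 (0.28) and Bmp4 (0.44). Tgfb3 was the member without a peak that had the highest value (0.66). The letters GGGCGG, read on either strand, were found in the 250 bases before the start of 17 of the 24 members with a peak (70.8%), against 55.2% of all genes with a peak, and of 0 of the 7 without, against 36.2% of all genes without. The share over all genes was 39.6%.

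The 250 bases before the start show this contrast. They were read 5′ to 3′ on the gene's strand from the NCBIM37 genome, with every CpG in capitals. Gdf6, Inhba and Tgfb2 are the members of the ligand roles with the widest Jarid2 cover and a peak over the start, and Bmp5 is the first member without a peak. Bmp2, Inhbb and Nodal are added because H3K27me3 results below concern them.
Bmp2, chr2:133377645-133377894, plus strand: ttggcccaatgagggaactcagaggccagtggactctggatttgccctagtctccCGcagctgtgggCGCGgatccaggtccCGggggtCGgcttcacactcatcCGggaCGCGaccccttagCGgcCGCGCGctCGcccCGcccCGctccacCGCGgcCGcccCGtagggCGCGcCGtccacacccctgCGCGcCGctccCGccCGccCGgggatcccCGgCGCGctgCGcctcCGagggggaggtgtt
Gdf6, chr4:9771269-9771518, plus strand: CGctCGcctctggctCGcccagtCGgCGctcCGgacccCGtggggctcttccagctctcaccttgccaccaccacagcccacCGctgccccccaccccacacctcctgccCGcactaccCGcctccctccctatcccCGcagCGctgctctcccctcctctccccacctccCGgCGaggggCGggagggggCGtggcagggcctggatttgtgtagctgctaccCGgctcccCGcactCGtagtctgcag
Bmp5, chr9:75622921-75623170, plus strand: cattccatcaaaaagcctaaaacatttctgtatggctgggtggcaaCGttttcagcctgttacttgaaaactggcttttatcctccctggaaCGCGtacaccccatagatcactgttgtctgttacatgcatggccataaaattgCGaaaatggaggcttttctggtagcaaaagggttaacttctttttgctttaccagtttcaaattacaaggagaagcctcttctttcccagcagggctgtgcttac
Inhba, chr13:16103434-16103683, plus strand: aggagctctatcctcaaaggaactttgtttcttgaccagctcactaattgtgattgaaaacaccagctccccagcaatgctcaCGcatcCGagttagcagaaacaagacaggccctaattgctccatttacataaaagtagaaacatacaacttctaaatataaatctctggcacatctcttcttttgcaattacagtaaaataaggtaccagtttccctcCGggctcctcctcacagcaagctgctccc
Inhbb, chr1:121318826-121319075, minus strand: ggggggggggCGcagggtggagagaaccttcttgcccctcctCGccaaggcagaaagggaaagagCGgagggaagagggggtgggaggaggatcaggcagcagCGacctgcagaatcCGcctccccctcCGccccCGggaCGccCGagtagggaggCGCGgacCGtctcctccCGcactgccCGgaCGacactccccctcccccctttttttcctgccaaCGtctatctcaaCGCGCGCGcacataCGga
Nodal, chr10:60880470-60880719, plus strand: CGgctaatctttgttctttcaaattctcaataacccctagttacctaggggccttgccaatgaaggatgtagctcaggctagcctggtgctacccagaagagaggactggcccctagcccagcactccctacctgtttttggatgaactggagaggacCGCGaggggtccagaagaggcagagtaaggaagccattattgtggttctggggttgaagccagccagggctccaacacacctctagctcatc
Tgfb2, chr1:188529872-188530121, minus strand: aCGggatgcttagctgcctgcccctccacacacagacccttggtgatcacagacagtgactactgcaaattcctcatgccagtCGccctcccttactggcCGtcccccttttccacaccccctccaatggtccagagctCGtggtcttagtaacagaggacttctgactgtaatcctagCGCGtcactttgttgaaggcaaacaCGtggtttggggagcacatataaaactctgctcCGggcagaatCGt
Bmp2 held 33 CpG in these bases, Inhbb 21 and Gdf6 19. Tgfb2 held 9 and Inhba only 3, the same number as Nodal, and Bmp5 held 4. Thus Inhba carried Jarid2 over a start with as few CpG in these bases as that of Nodal, which had no peak. In the 1 kb centred on the start, the observed over expected CpG was 0.54 for Inhba and 0.47 for Nodal.

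Receptors, Smad proteins and Id genes of the same pathway were occupied less often by count, though no test was made. Of 27 such genes, 12 had a Jarid2 peak and 13 had a Jarid2-K116me2 peak. The occupied ones were the receptors Acvr1c, Acvrl1, Bmpr1b, Tgfbr1, Tgfbr2 and Tgfbr3, the transducers Smad3, Smad6 and Smad9, and Id2, Id3 and Id4. Acvr1 had Jarid2-K116me2 only. A list of 8 pluripotency genes was also searched, and only Esrrb had a peak of either antibody. None of the 8 was covered by H3K27me3 in any ESC library. Jarid2 peaks were found at only 18.1% of all genes, and the ESC libraries covered 3.19% to 24.0% of them. Absence at 8 genes is thus common and does not check the cell type.

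H3K27me3 was measured as the percentage of the window from 5 kb before to 5 kb after each gene start that was covered by broad peaks. The libraries differed in how much was called. They held 1437 to 14101 peaks and covered 2.2 to 55 Mb of the genome, and the ESC libraries numbered 1 held the fewest peaks. The ESC WT replicate 1 library stood apart with 1437 peaks. The peak lists hold no read numbers, and a window without a peak is not shown to lack the mark. By the read totals that the study lists, which were not used here, the sparse KO and WT libraries of ESC had more reads than their replicates, and the WT libraries had the fewest reads in EB. The study's methods rate the second replicates as the better samples. In EB, the covered length was 33.6 and 55 Mb in KO, 19.6 and 22.4 Mb in WT and 23.2 and 37.1 Mb in K116A, and the part of read number and covered length in the differences between lines was not tested.

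**Figure D2:**
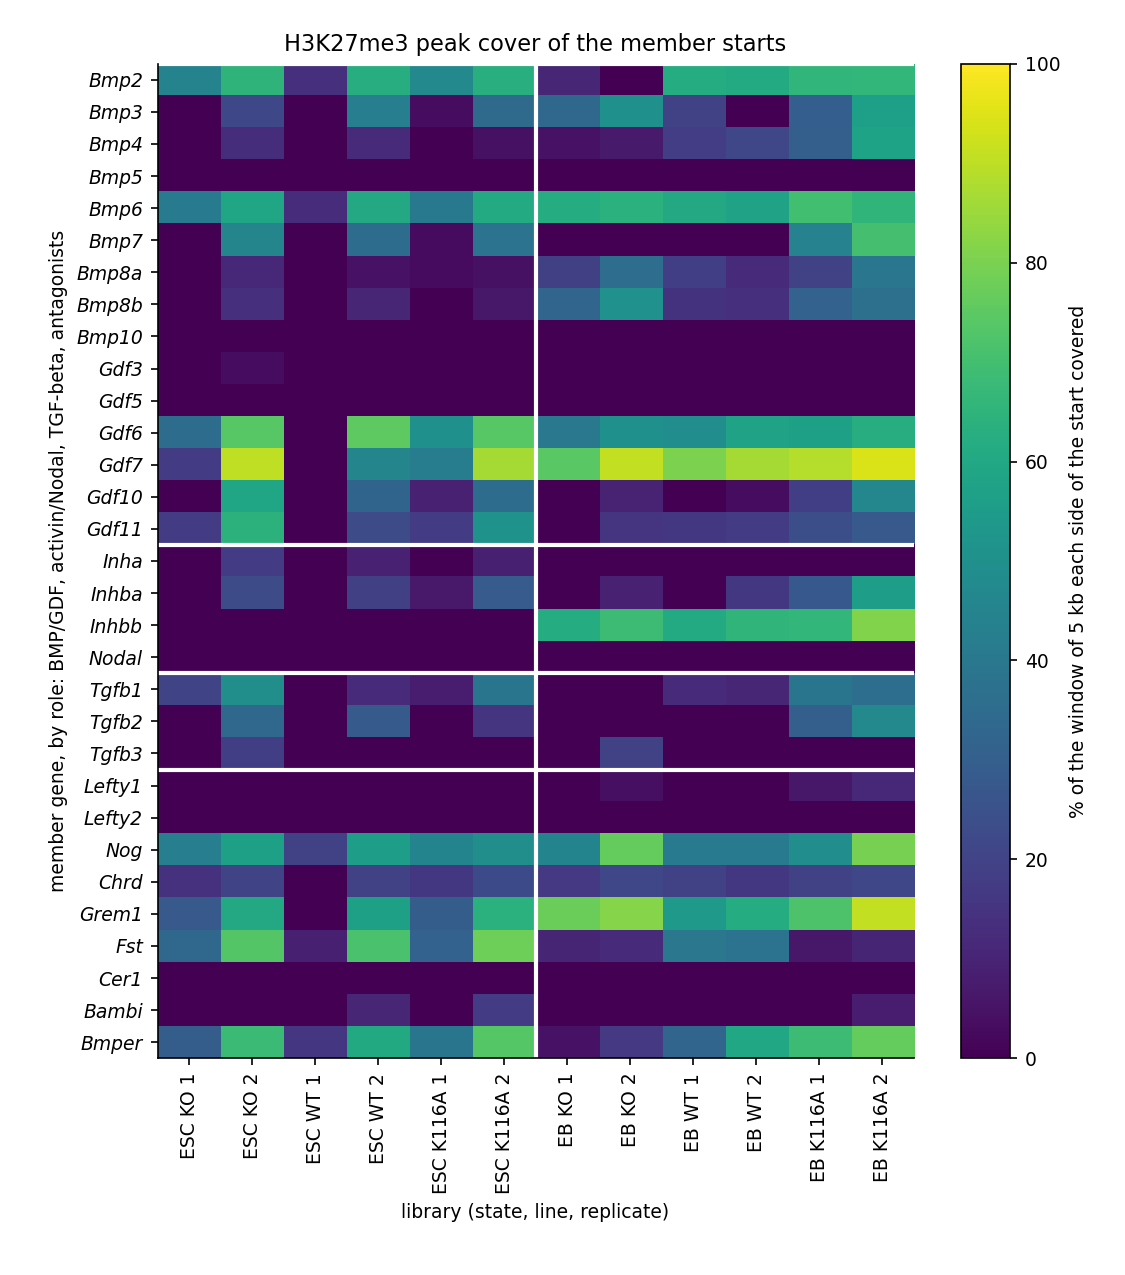
H3K27me3 cover of the window of 5 kb each side of the start, in percent by colour, for the 31 members (rows, by role) in the 12 libraries (columns; state, line and replicate). Inhbb is dark in the 6 ESC libraries and bright in the 6 EB libraries, and the ESC WT 1 column is dark for nearly every member.

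Members with a Jarid2 peak in E14 were mostly under H3K27me3 in the rescued and KO lines. In all 3 ESC libraries numbered 2, which held more peaks than those numbered 1, 20 of the 24 members with a Jarid2 peak were covered (83.3%), against 68.0% of all genes with a Jarid2 peak. None of the 7 members without a peak was, against 4.87% of all such genes. In all 6 EB libraries, 12 of the 24 were covered (50%), against 46.6%. Inhbb, Lefty1 and Lefty2 were the members with a Jarid2 peak that no ESC library numbered 2 covered. Of the members without a peak, Bmp5, Bmp10, Gdf5, Nodal and Cer1 were listed at 0 in every library, as was Lefty2. Tgfb3 was covered only in the replicate 2 libraries of KO, at 18.6% in ESC and 19.4% in EB, and Gdf3 only in ESC KO replicate 2, at 3.45%.

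Cover in ESC was compared with EB to ask which members gained or lost the mark on differentiation. A limma fit over 6746 genes covered in at least 2 of the 12 libraries held 24 members. Adjusted p-values are Benjamini-Hochberg values over all 6746 genes. Differences are in percentage points of the window, averaged over the 3 lines. Cover was higher in EB for 24.2% of the genes tested and lower for 0.845%. Genes covered only in EB libraries could only be higher, and those covered only in ESC libraries could only be lower. Of the 24 members, 4 were higher (Inhbb, Bmp8b, Bmp8a and Bmp4) and none was lower. When the 3 ESC libraries numbered 1 were left out, the genes called changed from 1630 higher and 57 lower to 763 higher and 1168 lower, and the members called became 1 higher (Inhbb) and 6 lower (Bmp2, Gdf6, Gdf11, Inha, Tgfb1 and Fst). Inha was at 0.0% in every EB library and entered the fit only through the ESC libraries numbered 2. It thus had to be lower here, and this call adds no support. The split with the strongest peaks up to the same covered length in all 12 libraries was 45 higher and 38 lower.

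Inhbb had H3K27me3 peaks listed in the EB of every line and in no ESC library. It was listed at 0 in the 6 ESC libraries, and in EB it was covered to 62% and 68.7% in KO, 61.1% and 65.3% in WT and 66.4% and 81.1% in K116A. The groups did not overlap between the states, and the lines lay close together in EB. The share of all genes without such overlap was not counted. Klf4, among the pluripotency genes searched, was likewise at 0.0% in every ESC library and at 19.6% to 91.7% in EB. The EB minus ESC difference of Inhbb was 67.44 points (SE 5.96, adjusted p = 0.00128 by limma). Inhbb entered the fit only through the EB libraries, where it is covered, so it had to differ and the p-value adds no support to the values. At the same covered length in all libraries, 2.24 Mb, it was not tested. Jarid2 and Jarid2-K116me2 were already present at this start in E14 ESC, as given above.

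Bmp8b was covered in ESC to 0.0% and 13.7% (KO), 0.0% and 10.6% (WT) and 0.0% and 6.52% (K116A). In EB it was covered to 32.7% and 50.7%, 14.7% and 13.8%, and 31.6% and 36.8% in the same order. The EB minus ESC difference was 24.88 points (SE 5.15, adjusted p = 0.0108 by limma). Its lowest EB library, WT replicate 2, lay just above the highest ESC library. The KO minus WT difference of Bmp8b in EB was 27.46 points and was not called (SE 8.92, adjusted p = 0.0645 by limma), but it was called with peaks of a score of at least 60 only (39.5 points, adjusted p = 0.00322 by limma). Bmp8a was covered in ESC to 0.0% and 11.5% (KO), 0.0% and 4.82% (WT) and 3.08% and 4.42% (K116A). In EB it was covered to 19% and 35.9%, 18.5% and 11.8%, and 19.5% and 39.2%. The EB minus ESC difference was 20.03 points (SE 5.13, adjusted p = 0.0228 by limma). Bmp4 was covered in ESC to 0.0% and 12.9% (KO), 0.0% and 12.3% (WT) and 0.0% and 4.56% (K116A). In EB it was covered to 4.7% and 7.06%, 18.1% and 21.1%, and 30.1% and 58.1%. The EB minus ESC difference was 18.24 points (SE 5.58, adjusted p = 0.0409 by limma). The Bmp4 ranges overlapped, with the KO libraries lowest in EB and the K116A libraries highest.

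The Bmp4 and Bmp8a calls depended on single libraries. The Bmp8a call was lost without ESC WT 1, either ESC K116A, EB KO 2, either EB WT or EB K116A 2, with adjusted p from 0.0506 to 0.0658. The Bmp4 call was lost without ESC KO 1, ESC WT 1, either ESC K116A, either EB KO, either EB WT or EB K116A 2, with adjusted p from 0.0655 to 0.108. Without the 3 ESC libraries numbered 1 the calls of Bmp8b, Bmp8a and Bmp4 ended, with differences of 19.74, 17.09 and 13.28 points (adjusted p = 0.0713, 0.179 and 0.28 by limma). These kept the direction and were smaller than with all libraries.

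Of the 20 members not called, Bmp6, Gdf6, Gdf7, Nog, Grem1, Fst and Bmper, which scored 3100 with both antibodies, were covered in every EB library and in at least 5 of the 6 ESC libraries. Bmp7, of the same score, was not listed in 4 of the 6 EB libraries. Gdf7 was covered to 17.8% and 90.5% (KO), 0.0% and 45.5% (WT) and 41.8% and 86.5% (K116A) in ESC, and to 74.5% and 90.7%, 80.1% and 86.7%, and 88.8% and 94.5% in EB in the same order. Gdf6 was covered in ESC to 35.4% and 74.1%, 0.0% and 75.3%, and 50.2% and 73.9%, and in EB to 40% and 50.1%, 49.2% and 57.6%, and 56.8% and 62.4%. Nog was covered in ESC to 42.9% and 56.9%, 19.8% and 56.1%, and 45.3% and 49.3%, and in EB to 45.1% and 76.3%, 40.8% and 41.1%, and 48.9% and 79.6%. In each of these members the lowest ESC library was WT replicate 1. Bmp6 ranged from 12.5% to 61.1% in ESC and from 57.8% to 69.7% in EB, and Grem1 from 0.0% to 64.0% and from 54.0% to 90.8%. Inha was covered only in the 3 ESC libraries numbered 2, at 17.8% in KO, 9.23% in WT and 8.89% in K116A.

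The KO and rescued EB were compared to ask where H3K27me3 depends on Jarid2 after differentiation. Cover was higher in KO for 17.6% of the genes tested and lower for 0.208%. The split of 1184 higher and 14 lower became 27 and 17 at the same covered length in all libraries. Of the 24 members, 1 was called, Bmp2, and it was lower. Bmp2 was covered to 10.7% and 0.0% in EB KO, 61.9% and 61.0% in EB WT and 65.8% and 66.2% in EB K116A. In ESC it was covered in all 6 libraries, at 44.9% and 65.2% in KO, 13.7% and 62.4% in WT and 47.0% and 62.5% in K116A. Both EB KO libraries thus lay far below the other 10 except ESC WT replicate 1. The KO minus WT difference in EB was -56.08 points (SE 17.0, adjusted p = 0.0492 by limma).

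The Bmp2 call was close to the threshold. It was made in 7 of 20 alternative fits, the fit of the 6 EB libraries alone among them (adjusted p = 0.0174). It was lost without either EB KO, either EB WT, either EB K116A or either ESC K116A library, with adjusted p from 0.0712 to 0.43. With peaks of a score of at least 60 only, the difference was 0.0 points, since the Bmp2 peaks of EB WT scored 55.3 and 49.0. The KO minus WT change from ESC to EB differed by -73.05 points (SE 24.1, adjusted p = 0.136 by limma) and was not called. Such a difference was called for 4.68% of all genes and for no member.

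Bmp2 was among 6 members whose 2 EB KO libraries both lay below both EB WT libraries. The others were Bmp4, Gdf11, Tgfb1, Fst and Bmper, and this pattern was found for 4.62% of the genes tested. The opposite, both KO libraries above, was found for 6 members, Bmp3, Bmp6, Bmp8a, Bmp8b, Nog and Grem1, and for 53.6% of the genes tested. Genes covered only in the 2 EB KO libraries passed the filter and could only lie above, so the filter adds to this share. With the strongest peaks of each library up to 19.6 Mb, the length covered in the smallest EB library, the 6 members below stayed 6 and the background rose to 12.7%. The members above became 5 and their background 19.7%. The median KO minus WT difference in EB was 0.0 points over the 24 members, -1.04 over the 13 other pathway genes in the fit and 8.92 over all genes.

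In ESC, Bmper was covered to 29.4% and 68.2% (KO), 16.0% and 60.7% (WT) and 38.9% and 73.5% (K116A), and Fst to 33.3% and 73.2%, 8.66% and 71.4%, and 31.3% and 77.8%. Bmper was covered to 5.03% and 16.7% in EB KO, 32.5% and 59.6% in EB WT and 68.4% and 76.2% in EB K116A. The 3 lines did not overlap, yet the KO minus WT difference of -35.21 points was not called (SE 20.5, adjusted p = 0.318 by limma). The share of all genes with this order of the 3 lines was not counted. Tgfb1 followed the same order, at 0.0% and 0.0%, 12.4% and 10.7%, and 39.0% and 36.1%. Fst did not: it was covered to 39.8% and 38.2% in EB WT and was lower in both KO (10.3% and 12.1%) and K116A (6.56% and 10.2%). Its differences from WT were -27.79 points in KO (SE 22.3, adjusted p = 0.52 by limma) and -30.63 points in K116A (SE 22.3, adjusted p = 0.852 by limma). The fit of the EB libraries alone was added after the data were seen, and its spread is smaller. Both Fst differences were called there (adjusted p = 0.0213 and 0.0453 by limma). The share of all genes called in that fit is not given here, so these calls have no background.

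**Figure D3:**
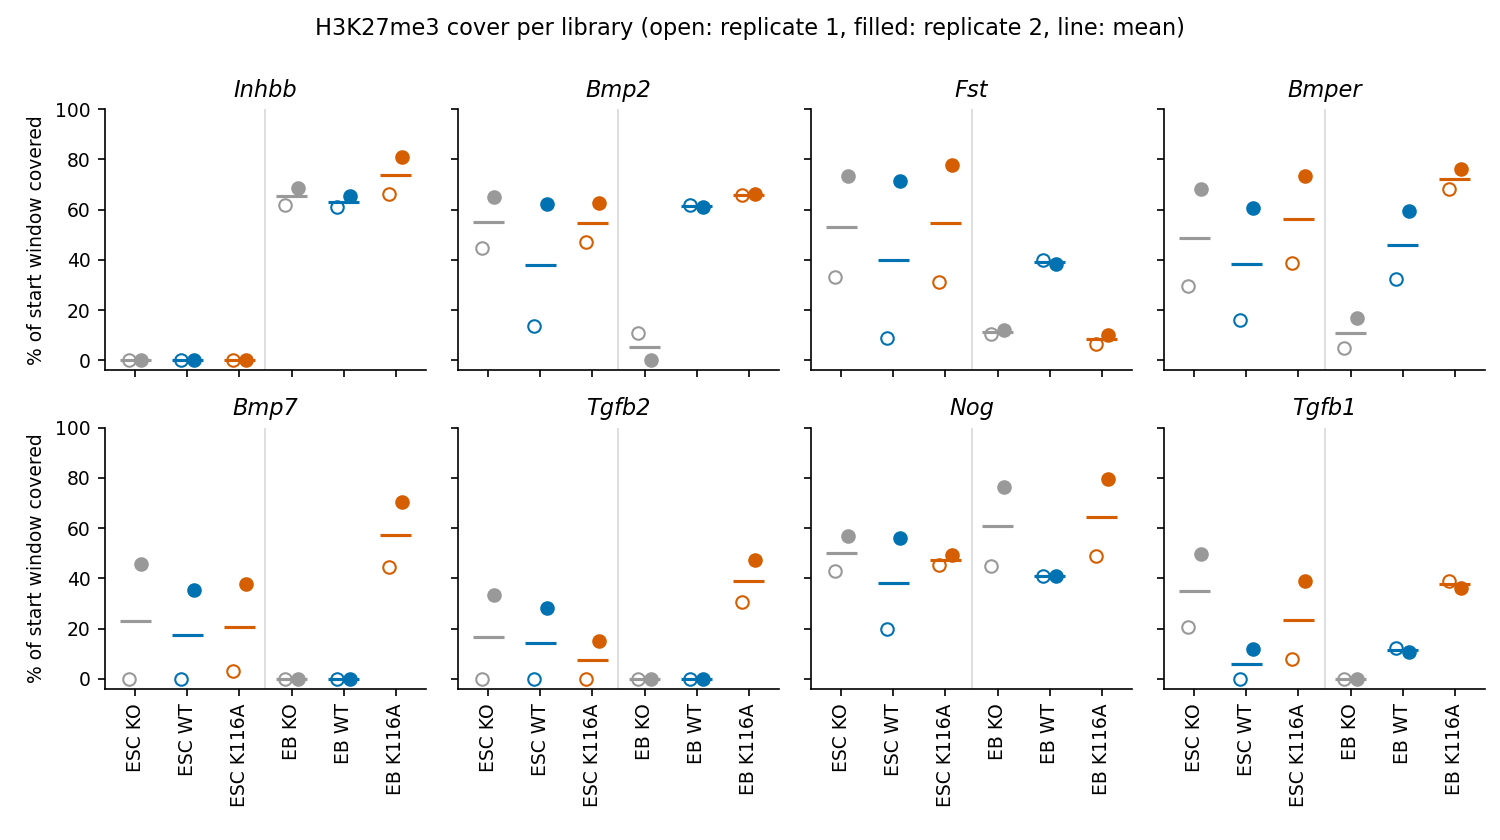
H3K27me3 cover (percent of the window of 5 kb each side of the start) of 8 members in the 6 groups; open circles are replicate 1, filled circles replicate 2 and lines the mean of 2. In EB, Bmp2 is low only in KO, Fst is highest in WT, and Bmp7 and Tgfb2 are covered only in K116A.

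The EB of the mutant rescue were compared with those of the WT rescue to ask what the lysine contributes. Cover was higher in K116A for 0.8% of the genes tested and lower for 0.119%, and no member was called. The split of 54 higher and 8 lower became 16 and 17 at the same covered length. At an unadjusted p under 0.05 stood 676 of all genes and 5 members. Both K116A libraries lay above both WT libraries for 18 of the 24 members, against 32.7% of the genes tested. The members outside this count were Gdf6, Inha, Tgfb3, Chrd, Fst and Bambi. Only Fst had both below, a pattern of 6.69% of the genes. At 19.6 Mb of strongest peaks per library the 18 members became 14 and the background 19.4%. Bmp3, Gdf10, Inhba, Tgfb2 and Lefty1 left the count there and Gdf6 entered it. The median K116A minus WT difference in EB was 12.34 points over the 24 members and 2.72 over all genes. It was 12.5 points over the 13 other pathway genes in the fit, so the shift was not particular to the ligands and antagonists.

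Bmp7 and Tgfb2, singled out here after their values were seen, were covered in EB of the K116A line only. The share of all genes with this pattern was not counted, so it has no background. Bmp7 was at 0.0% in both KO and both WT libraries and at 44.5% and 70.4% in K116A, a difference from WT of 57.46 points (SE 18, adjusted p = 0.25 by limma). Tgfb2 was at 0.0% in KO and WT and at 30.4% and 47.2% in K116A, a difference of 38.83 points (SE 12.5, adjusted p = 0.269 by limma). The Tgfb2 peaks of EB K116A scored 38.1 and 52.2, and at 19.6 Mb of strongest peaks per library Tgfb2 was at 0.0% in all 6 EB libraries. Bmp7 stayed at 40.8% and 70.4% in K116A and at 0.0% in KO and WT. In the ESC libraries numbered 2 both were covered in every line, Bmp7 at 45.7%, 35.2% and 37.9% and Tgfb2 at 33.3%, 28.3% and 14.9% in KO, WT and K116A. In the ESC libraries numbered 1, Bmp7 was at 0.0%, 0.0% and 3.03% in the same order and Tgfb2 at 0.0% in each line. Only against the libraries numbered 2 was the mark thus no longer listed in KO and WT EB and still listed in K116A EB. The K116A minus WT change from ESC to EB differed by 54.59 points for Bmp7 and by 45.53 points for Tgfb2 (adjusted p = 1.0 for both by limma). In EB K116A the cover of Bmp7 lay mostly before the start, while in ESC it lay mostly after it.

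**Figure D4:**
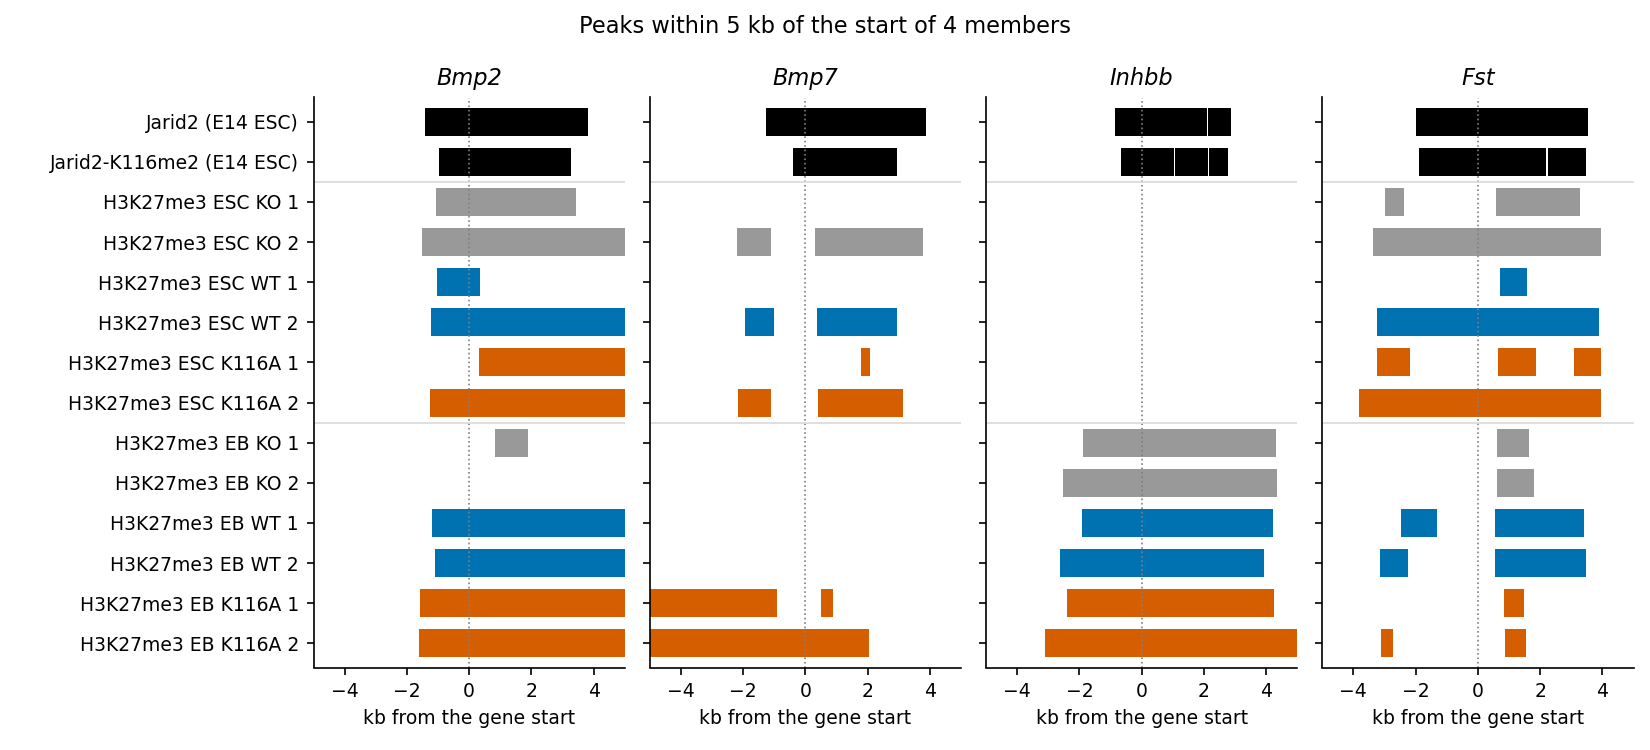
Peaks of Jarid2 and Jarid2-K116me2 in E14 ESC (black) and of H3K27me3 in the 12 libraries (grey KO, blue WT, orange K116A) within 5 kb of the starts of Bmp2, Bmp7, Inhbb and Fst, with the direction of transcription to the right. Inhbb has Jarid2 peaks in ESC and H3K27me3 peaks only in EB, and Bmp2 has a single short H3K27me3 peak in EB KO.

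Inhba, Bmp4, Bmp3 and Gdf10 had higher means in EB K116A than in EB WT without being called. Inhba was covered to 27.7% and 55.8% against 0.0% and 16.1%, a difference of 33.73 points (SE 13.1, adjusted p = 0.383 by limma). The EB KO libraries of Inhba were at 0.0% and 9.12%, and in ESC it was at 0.0% and 23.3% (KO), 0.0% and 19.1% (WT) and 6.97% and 28.9% (K116A). At 19.6 Mb of strongest peaks per library Inhba and Lefty1 were at 0.0% in all 6 EB libraries. For Bmp4 the difference was 24.53 points (SE 9.66, adjusted p = 0.396 by limma), for Bmp3 33.55 points and for Gdf10 30.57 points. Lefty1 had a small cover in EB, at 6.45% and 11.3% in K116A and 0.0% and 4.11% in KO, against 0.0% in both WT libraries. The K116A minus WT difference was 8.86 points (SE 2.31, adjusted p = 0.142 by limma). Since no ESC library covered it, Lefty1 entered the fit only through KO and K116A EB libraries. Chrd differed little, at 19.4% and 21.4% in K116A and 19.8% and 16.3% in WT.

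In undifferentiated ESC the lines were not told apart. By limma, 0.0% of the genes were called in either direction for KO minus WT or for K116A minus WT, with 18 and 35 genes at an unadjusted p under 0.05. Tgfb1 was the only member under that value, at 20.5% and 49.5% in KO and 7.9% and 39.0% in K116A against 0.0% and 12% in WT (KO minus WT 29.0 points, SE 12.2, adjusted p = 1.0). The change from ESC to EB in K116A minus WT was called for 0.0% of the genes, with 271 at an unadjusted p under 0.05. The sparse ESC WT replicate 1 library enters each of these comparisons. Without the 3 ESC libraries numbered 1, each ESC group has 1 library and is assumed to vary like the EB groups. Tgfb1 was then 37.49 points higher in KO and 26.96 points higher in K116A than in WT ESC. Inha was 8.55 points higher in KO, but its spread was taken from EB libraries that are all at 0.0%.

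Among the 13 other pathway genes in the fit, 1 was called in any contrast. Tgfbr1, the type I TGF-beta receptor, was covered to 62.6% and 70.3% in EB KO and to 4.66% and 6.91% in EB WT (60.68 points, SE 17.4, adjusted p = 0.0396 by limma), with K116A at 19.7% and 60.2%. Its direction in KO was opposite to that of Bmp2. The KO and K116A values above were read against the same WT libraries, so the paired comparisons are not independent of each other.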

How the data were processed

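The authors mapped single reads of 100 bp to mm9 with Bowtie2 2.1.0, keeping 1 location for reads that fit several, and removed duplicates with PicardTools. For Jarid2 and Jarid2-K116me2 they called peaks with MACS 1.4.2 and deposited each peak with its score, minus 10 times the log10 of the p-value. For H3K27me3 they called broad peaks in each sample with MACS2 2.0.10, and the deposited score is on a scale the files do not name. Versions are those of the submitters' processing notes.

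Peaks were assigned to protein-coding genes of GENCODE on NCBIM37 within 5 kb, with an overlap of at least 1 bp. H3K27me3 values are the percentage of the window of 5 kb each side of the outermost gene start that peaks covered. Genes covered in at least 2 of 12 libraries entered limma 3.58.1 (R 4.3.3) with 6 groups, trended and robust variances and Benjamini-Hochberg adjustment at 0.05. Peak lists hold no reads, so the read-based test of the study was not used. The read totals the study lists per library were not used either, and give no read number for a window. The replicates are given as independent biological samples. The p-values rest on 1 spread per gene, pooled over the 6 groups of 2 samples and moderated across genes. A contrast in EB therefore also draws on the spread between ESC replicates, except in the fit of the EB libraries alone. The functions were checked on simulated data.

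Members without coverage in 2 libraries were not tested. Text values follow a rule: every member is accounted for, H3K27me3 is given per library for the 3 members of each role with the highest Jarid2 score and for every member called, and others were named after their values were seen. Ties at 3100 were broken by peak width. The promoter of the antagonists is not reported here. The members, lists and tests were chosen with earlier results of these data known. Alternatives were other distances and windows, a stricter score, equal covered length, a replicate block and leaving out libraries. The 2 input samples were not analysed here. Coverage and counts were computed in Python 3.11.15 (pandas 2.3.3, numpy 2.4.6) and figures drawn with matplotlib 3.10.9.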

Additional observations from a re-analysis of the deposited data

How the results depend on the processing

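The counts of members with peaks stayed at 23 to 24 for Jarid2, 21 to 22 for Jarid2-K116me2 and 21 to 22 for both under every distance, score and overlap tried, and the median log2 score ratio of 0.0 became 0.09 without members at 3100 and 0.01 with summed scores. The numbers of genes called by limma did not stay. They were 1687 (EB minus ESC), 1198 (KO minus WT in EB), 62 (K116A minus WT in EB), 0 for either ESC contrast, 316 (change from ESC to EB, KO against WT) and 0 (the same change, K116A against WT), with 4, 1, 0, 0, 0 and 0 members.

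With a window of 2 kb each side of the start, the EB minus ESC count became 710 genes, KO minus WT in EB 502 with 0 members, and the changes from ESC to EB 96 (KO) and 6 (K116A). With the whole gene and 5 kb each side, EB minus ESC called 2 members, KO minus WT in EB 0 members, K116A minus WT in EB 104 genes, and the changes 601 and 17 genes. With the strongest peaks of each library up to 2.24 Mb, the length covered in the smallest library, EB minus ESC called 83 genes and 1 member (Nog, lower), KO minus WT in EB 44 genes and 0 members, K116A minus WT in EB 33, the ESC contrasts 3 (KO) and 7 (K116A), and the changes 26 and 28 genes. Inhbb did not pass the filter there. With genes covered in at least 1 library, KO minus WT in EB called 0 members, K116A minus WT in EB 31 genes, and the KO change 141 genes.

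With the replicate number as a replicate block, EB minus ESC called 2748 genes and 8 members, KO minus WT in EB 2 members (Bmp2 lower, Bmp8b higher), K116A minus WT in EB 166 genes and 2 members (Bmp7 and Inhba, higher), and the K116A change 3 genes. The numbers were not shown to pair the samples, because the correlation of replicate differences over 15 pairs of groups ran from -0.00943 to 0.699 with a median of 0.0945.

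The settings that follow were chosen after seeing the data. With peaks of a score of at least 60, EB minus ESC called 635 genes, KO minus WT in EB 479 with Bmp8b higher in place of Bmp2 lower, K116A minus WT in EB 122 genes and 1 member (Bmp8b), and the changes 1 member (Bmp8b, KO) and 39 genes (K116A). With log2 of the mean score plus 1, KO minus WT in EB called 0 members and K116A minus WT in EB 115 genes. Without the 3 ESC libraries numbered 1, EB minus ESC called 7 members, the ESC contrasts 710 genes and 2 members (KO) and 585 genes and 1 member (K116A), KO minus WT in EB 696 genes and 3 members, K116A minus WT in EB 194 genes and 2 members, and the changes 865 genes and 4 members (KO) and 634 genes and 1 member (K116A). With the EB libraries alone, 2 members were called for KO and 1 for K116A.

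Leaving out each library in turn gave 774 to 2034 genes and 2 to 7 members for EB minus ESC. The KO minus WT range in EB was 277 to 1272 genes and 0 to 1 member, and the K116A minus WT range in EB 0 to 141 genes and 0 to 1 member. In ESC it was 0 to 114 genes (KO) and 0 to 77 genes (K116A), and for the changes 0 to 505 genes and 0 to 1 member (KO) and 0 to 35 genes (K116A). The group left with 1 library was assumed to vary like the others. The causes of these shifts were not tested. The alternatives on q-values and on fold enrichment were not run, because the lists analysed hold neither. Reads per window were not analysed here, so a cover of 0.0% says only that no peak was listed.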
